A study of Bos taurus with 16 samples.

Results

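The OR2 and OR4 families of olfactory receptors were described here in the spleen of 16 crossbred steers. The members were all transcript clusters on the array whose single gene symbol in the platform annotation was OR2 or OR4 followed by a letter, and they were kept per cluster. On this array the probes that lie along a gene are summarised together as a transcript cluster. The rule gave 221 clusters with 219 symbols among 24997 clusters analysed, of which 117 were OR2 and 104 were OR4 clusters. The families themselves were chosen by a readout of these same steers. OR4A2I and OR2A62 had small p-values in the test of the 4 groups, and this drew attention to the families. Their group values are therefore given below as a description with no test.

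The groups crossed weight gain with feed intake. Among high gain steers, 4 were high gain-high intake and 4 were high gain-low intake animals, and among low gain steers, 4 were low gain-low intake and 4 were low gain-high intake animals. All steers received a standard concentrate diet during an 84-day feeding trial. In each quadrant of gain and intake, steers were ranked by their distance from the bivariate mean and high-ranking ones were taken, with animals in ill health left out and a lower rank taken where a sire breed was too frequent. The groups were thus selected on phenotype and no treatment was applied, and the breed composition of the crossbred steers differed between groups. Each steer gave a single spleen piece, cut near the free end of the organ, and a single Affymetrix Bovine 1.1 ST array. The study asked which spleen transcripts differed with gain and feed intake. The paper states that slaughter took 4 consecutive days with a steer of each group on each day, so that day was balanced over the groups. Which steer fell on which day is not in the labels, and day was not in the model. For single steers the day of slaughter, the array strip and the breed were not known here, and they cannot be told apart from the animal itself.

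Olfactory receptors are G protein-coupled receptors of the nose and form the largest gene family of mammals. Each sensory neuron of the nasal epithelium expresses a single receptor gene and silences the others. An odorant that binds the receptor activates the G protein subunit GNAL, then the adenylyl cyclase ADCY3, and the cAMP formed opens a cation channel of CNGA2, CNGA4 and CNGB1. The OR2 and OR4 genes lie in arrays of close paralogs, so probes of neighbouring genes can share sequence. Spleen is a lymphoid organ that filters blood, and it is not a tissue where these receptors are known to work.

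Lymphoid and macrophage markers were bright on these arrays and markers of olfactory neurons were dim. The lymphoid markers found, 10 of 11, lay between 9.84 and 18.10 on the log2 scale of the deposited values, and the 4 macrophage markers lay between 11.75 and 15.92. The B cell antigen MS4A1 averaged 14.65 and the T cell receptor subunit CD3E averaged 16.44. In contrast, all 10 markers of mature olfactory sensory neurons lay between 6.41 and 7.51, below the median of all clusters, which was 8.30. OMP, the protein that defines mature olfactory neurons, averaged 6.48. The erythroid markers found, 5 of 7, lay between 6.82 and 11.45, and 3 of them were below the median of all clusters. Of these, SLC4A1 (6.82) and TRIM58 (7.45) lay within the range of the olfactory neuron markers. These are values of whole tissue, where fewer cells of a type and less RNA per cell cannot be told apart. Correlations between pairs of arrays ranged from 0.955 to 0.986 over all clusters and from 0.875 to 0.949 over the OR2 and OR4 clusters.

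The OR2 and OR4 clusters were at the low end of the array. Their mean log2 values over 16 steers had a median of 6.44 and ranged from 4.09 to 11.16. The lower quartile of all clusters was 7.04, and 167 of the 221 clusters (75.6%) were below it, against 25% of all clusters by construction. Only 9 members reached the median of all clusters and only OR4D11 reached the upper quartile of 10.26. The families were alike in level, with a median of 6.45 in OR2, where 86 of 117 clusters were below the lower quartile, and a median of 6.42 in OR4, where 81 of 104 were. Values of different clusters depend on their probes, so these ranks are a description and were not tested.

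**Figure D1:**
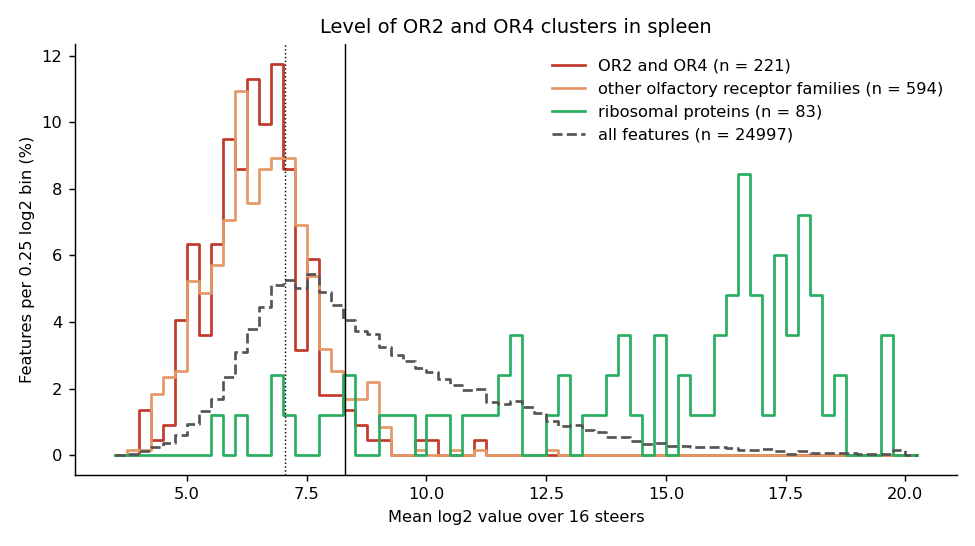
Mean log2 value over 16 steers (x axis) of the OR2 and OR4 clusters, the other olfactory receptor families, the ribosomal protein genes and all clusters, as the percentage of each list per bin of 0.25 log2 (y axis). The dotted line is the lower quartile of all clusters (7.04) and the solid line their median (8.30). The OR2 and OR4 clusters peak left of the dotted line, together with the other receptor families.

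Other genes that spleen is not known to use gave the scale for these levels. The 594 clusters of other olfactory receptor families had a median of 6.54, and 67.3% of them were below the lower quartile of all clusters. The 14 taste receptor clusters had a median of 6.53 and the 20 clusters of keratin-associated proteins, which build hair, had a median of 6.53. The 19 clusters of sperm and lens genes had a median of 7.37. The 1 vomeronasal receptor cluster was at 8.002. The 83 ribosomal protein clusters, which every cell uses, had a median of 16.09. The OR2 and OR4 median was thus within 0.1 of the medians of taste receptors and keratin-associated proteins.

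The same held on each array. Between 155 and 171 members were below the lower quartile of their own array. Of the 221 clusters, 109 were below it on all 16 arrays, 81 on some and 31 on none. On the upper side, 198 members were never above the array median, and 4 members, OR4D11, OR2A65, OR2V2 and OR4F58B, were above it on all 16 arrays.

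Of 44 subfamilies, the 8 with at least 10 clusters held 122 members. Their medians lay between 5.90 for OR4F (n = 20) and 6.90 for OR2A (n = 15). OR4C (n = 20) had a median of 6.63, OR2T (n = 17) of 6.81, OR4D (n = 16) of 6.78, OR4A (n = 12) of 6.42, OR2B (n = 11) of 6.77 and OR4K (n = 11) of 6.13. Of the smaller subfamilies, OR4L (n = 3) had a median of 5.15 and OR2AV (n = 5) of 5.69, whereas OR4X (n = 5) had a median of 7.12. Single clusters of a subfamily spread farther than these medians. OR4F ran from 4.14 to 9.09, OR2A from 4.09 to 10.22 and OR4D from 5.29 to 11.16. By gene ID, 218 members matched the current RefSeq table (assembly ARS-UCD2.0), where 211 are protein coding and 7 are pseudogenes. The pseudogenes lay between 6.07 (OR4A47P) and 7.93 (OR4K55P), inside the range of the coding members. Clusters of the same symbol did not have the same level. The 2 clusters of OR4X2 averaged 8.65 and 4.41, and those of OR4C1J averaged 6.999 and 6.05.

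OR4D11 was the brightest member, with a mean of 11.16 ± 0.33 (SD, n = 16) at the 82.6th percentile of all clusters. It measured 11.15, 11.34, 11.43 and 10.68 in high gain-high intake steers, 11.07, 11.19, 11.57 and 10.88 in high gain-low intake steers, 11.25, 11.29, 11.38 and 11.24 in low gain-low intake steers, and 10.99, 10.52, 11.75 and 10.77 in low gain-high intake steers. All 16 values were above the upper quartile of all clusters and the groups overlapped. OR2A65 averaged 10.22 ± 0.28 (SD, n = 16), and its values ran from 9.82 to 10.98, both in high gain-high intake steers.

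OR2V2 averaged 9.98 ± 0.69 (SD, n = 16) and had the largest spread within groups of any member. It measured 9.80, 10.19, 9.54 and 9.07 in high gain-high intake steers and 9.07, 11.28, 9.98 and 9.85 in high gain-low intake steers. In low gain-low intake steers it measured 10.01, 9.82, 11.65 and 10.02, and in low gain-high intake steers 9.52, 9.86, 10.53 and 9.54. Thus 2 steers, 1 in each low intake group, stood above 11 and the other 14 were between 9.07 and 10.53.

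The other members of the brightest 8 were OR4F58B (mean of 9.09), OR4A2 (8.96), OR2T63 (8.65), the brighter OR4X2 cluster (8.65) and OR2B2D (8.44). OR4F58B ranged from 8.61 to 9.55 over the 16 steers. OR4X2 measured 8.04, 8.42, 8.501, 9.17, 8.01, 8.60, 8.34 and 8.34 in high gain steers, against 8.77, 8.94, 8.79, 8.89, 8.66, 8.79, 9.18 and 8.997 in low gain steers. A single high gain steer, at 9.17, lay within the range of the low gain steers. The difference of high from low gain was -0.45 with a standard error of 0.14, and it did not pass the adjusted limma test (adjusted p = 0.749). For the other 7, no contrast of the groups passed at an adjusted p under 0.05 either.

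**Figure D2:**
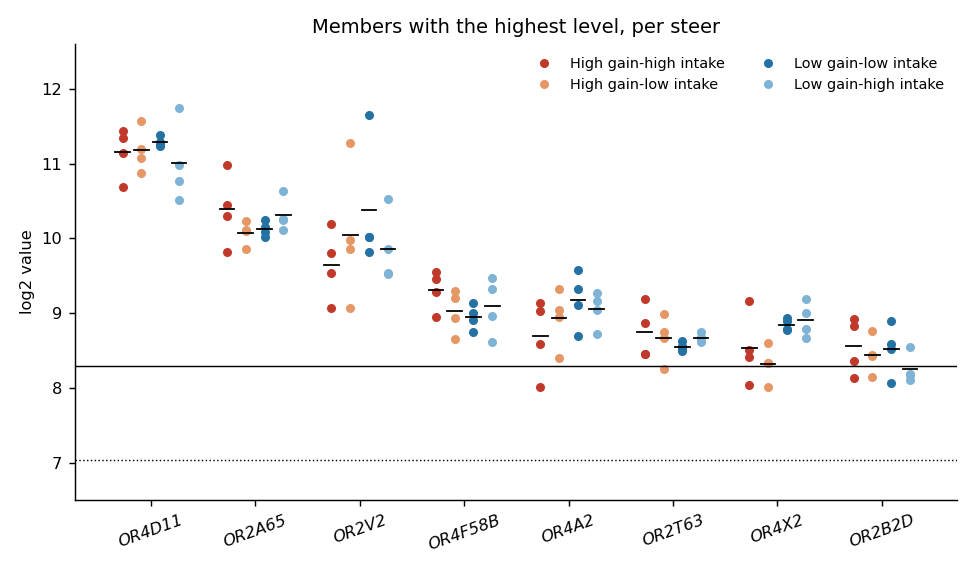
Log2 value (y axis) of the 8 members with the highest mean level (x axis) in each of the 16 steers. Points are steers, coloured by group, short bars are group means, and the solid and dotted lines are the median (8.30) and the lower quartile (7.04) of all clusters. OR4D11 lies above the median line in every steer, and OR2V2 has 2 steers above 11.

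At the dim end, OR2A69 averaged 4.09, OR4F14H 4.14 and OR2N1 4.14. OR4F14H measured between 3.97 and 4.36 over the 16 steers and had the smallest within-group SD of any member, 0.101. OR2N1 had a within-group SD of 0.105, as its values lay between 3.97 and 4.32. Another member of small spread, OR4N2C, had an SD of 0.106 at a mean of 7.69. Besides OR2V2 (0.709), the largest within-group SDs were those of OR4F67B (0.646) and OR4F63B (0.533), which averaged 5.69 and 5.84. OR4F67B measured 5.49, 5.20, 4.97 and 6.42 in high gain-high intake steers and 4.60, 5.82, 5.60 and 6.74 in high gain-low intake steers, so that its span within a group was larger than any difference between group means.

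Over all members the median within-group SD was 0.281, the same as over all clusters. Among the clusters below the lower quartile it was 0.276 for OR2 and OR4 and 0.269 for other olfactory receptor families, against 0.213 for 3813 other genes with a single symbol at that level. The range over 16 steers had a median of 1.06 and went from 0.34 to 2.70. In 8 members it was above 2, and the widest was that of OR4D11B. The median gap between the highest and the lowest group mean was 0.31.

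OR4A2I was higher in low gain-low intake steers than in the other groups. It measured 7.68, 7.27, 7.20 and 7.31 in low gain-low intake steers, against 6.63, 6.43, 6.75 and 6.51 in high gain-high intake steers, 6.88, 6.70, 6.34 and 6.30 in high gain-low intake steers, and 6.93, 6.85, 6.96 and 6.66 in low gain-high intake steers. The lowest of the 4 low gain-low intake values, 7.20, was above the highest of the other 12, 6.96. The share of all clusters that separate in this way is not given, so nothing is read from the separation. The means were 7.37 ± 0.22 (SD, n = 4) in low gain-low intake steers and 6.66 ± 0.23 (SD, n = 12) in the other steers, a difference of 0.70 with a standard error of 0.12. The mean over all steers, 6.84, was at the 20.7th percentile of all clusters, and the value was below the lower quartile of the array in 12 of 16 steers. Even in the low gain-low intake group it stayed below the array median.

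OR2A62 was lower with high intake. It measured 6.89, 6.80, 6.67 and 6.60 in high gain-high intake steers and 6.09, 6.45, 6.74 and 6.56 in low gain-high intake steers, against 7.42, 6.99, 7.37 and 6.95 in high gain-low intake steers and 7.37, 7.21, 7.13 and 7.09 in low gain-low intake steers. The highest of the 8 high intake values, 6.89, was below the lowest of the 8 low intake values, 6.95. As for OR4A2I, the share of all clusters that separate likewise is not given and nothing is read from it. The means were 6.60 ± 0.25 (SD, n = 8) with high intake and 7.19 ± 0.18 (SD, n = 8) with low intake, a difference of -0.59 with a standard error of 0.11. The difference of high from low gain was 0.13 with a standard error of 0.11. OR2A62 averaged 6.90, at the 21.9th percentile, and was below the lower quartile of the array in 10 steers.

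The differences of neighbouring members are given as a description. OR4A2I and OR2A62 were chosen for their small p in these steers, so smaller differences in other genes follow from that choice. Nothing is read from them, and the contrast between genes was not tested. In the gene order of the RefSeq assembly, OR2A7 lies next to OR2A62, and its difference of high from low intake was 0.05 with a standard error of 0.13. The members nearest to OR4A2I were OR4C160, with 9 genes between, and OR4A2C, with 2 genes between. Their differences of low gain-low intake from the other steers were -0.01 and -0.13 with standard errors of 0.13 and 0.20. Over 105 pairs of members that are adjacent in that order, the correlation over the 16 steers had a median of 0.07, and over all 24310 pairs of members it had a median of 0.06. All these pairs share the same arrays.

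The clusters whose pattern over the 16 steers was most like that of OR4A2I, by Pearson's r among 18789 clusters with a single symbol, were those of TMEM88 (0.86), OR2AV13 (0.86), MANSC4 (0.86), EXPH5 (0.82) and CLK1 (0.82). Among the members, OR2AV13 was followed by OR4A2H (0.63) and OR2B4 (0.62). The clusters most like OR2A62 were GALNT18 (0.75), LOC515578 (0.74), IZUMO1R (0.72), HORMAD1 (0.71) and LRWD1 (0.71). The nearest members were OR2T60 (0.54), OR2W6 (0.50) and OR4B1H (0.49). Each is the top of a large number of comparisons, and no test was made.

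The F test of the 4 groups, fitted with limma over all 24997 clusters, called 0 members at an adjusted p under 0.05, where 0% of all clusters were called. At an unadjusted p under 0.05 it called 21 of 221 members (9.50%), against 4.67% of all clusters. Without OR4A2I and OR2A62, which led to the families, it was 19 of 219 (8.68%), and in the other olfactory receptor families 50 of 594 (8.42%). As the families were chosen on this test, the counts are given beside the background and nothing is read from them. The 8 other members with the smallest p in this test were OR2H1, OR2B4, OR4D11B, OR2C3B, OR2Q2, OR2B6, OR4C1I and OR2AD1B, each with an adjusted p of 1. They were picked for that p and are described by their values.

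OR2H1, OR4D11B and OR4C1I differed most between low gain-high intake steers and the rest. OR2H1 measured 6.57, 6.93, 6.87 and 6.64 in low gain-high intake steers and between 6.13 and 6.64 in the other 12, so that the highest of these 12 exceeded the lowest low gain-high intake steer. The difference was 0.41 with a standard error of 0.10 (limma, adjusted p = 0.946). OR4D11B measured 7.70, 7.43, 8.90 and 7.64 in low gain-high intake steers and between 6.20 and 7.90 in the other 12. Its difference was 0.94 with a standard error of 0.26 and rested in part on the steer at 8.90, as it was 0.61 without that steer. OR4C1I measured 7.21, 7.16, 6.70 and 7.33 in low gain-high intake steers and between 6.19 and 7.07 in the other 12, a difference of 0.49 with a standard error of 0.15.

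OR2C3B and OR2B6 were highest on average in low gain-low intake steers. OR2C3B measured 6.21, 6.24, 6.69 and 6.64 in that group and between 5.19 and 6.52 in the other 12 steers, a difference of 0.67 with a standard error of 0.19 (limma, adjusted p = 0.645). OR2B6 measured 7.05, 7.18, 6.91 and 7.08 in that group and between 6.34 and 7.05 in the other 12, a difference of 0.39 with a standard error of 0.11 (limma, adjusted p = 0.647). In both, at least 1 of the other steers reached into the range of the low gain-low intake group.

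OR2AD1B and OR2Q2 were lowest on average in high gain-low intake steers. OR2AD1B measured 6.19, 6.06, 6.78 and 6.97 in that group and between 6.88 and 8.19 in the other 12 steers, a difference of -0.80 with a standard error of 0.22 (limma, adjusted p = 0.758). OR2Q2 measured 5.32, 6.54, 6.15 and 6.10 in that group and between 6.17 and 7.28 in the other 12. Its difference was -0.69 with a standard error of 0.19 and it was -0.45 without the steer at 5.32.

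OR2B4 differed most with gain. It measured 6.96, 6.86, 7.03, 6.69, 7.01, 7.16, 6.68 and 6.76 in high gain steers, against 7.24, 6.99, 7.07, 7.30, 7.40, 7.36, 7.43 and 7.16 in low gain steers. The means were 6.89 ± 0.18 with high gain and 7.24 ± 0.16 with low gain (SD, n = 8 each), a difference of -0.35 with a standard error of 0.09 (limma, adjusted p = 0.735). The 8 high gain values reached up to 7.16 and the low gain values down to 6.99, so the groups overlapped.

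**Figure D3:**
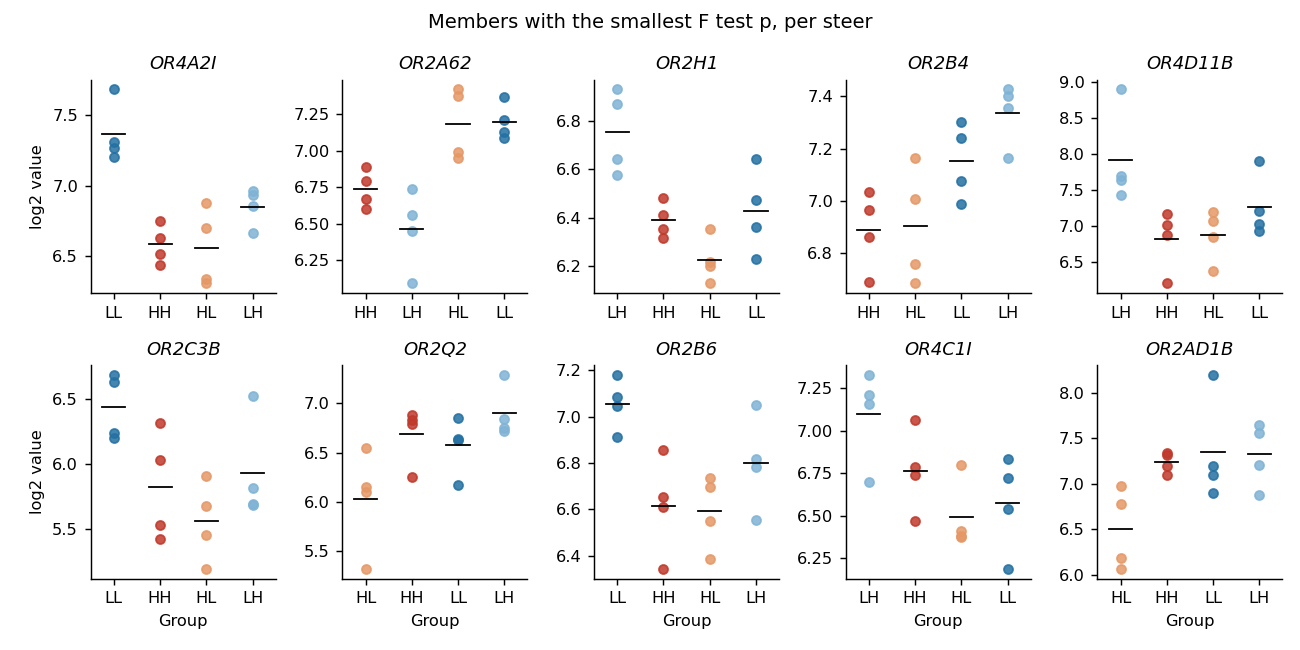
Log2 value (y axis, with its own scale in each panel) of the 10 members with the smallest F test p in each of the 16 steers, by group (x axis). HH is high gain-high intake, HL high gain-low intake, LL low gain-low intake and LH low gain-high intake, points are steers and bars are group means. The groups separate in OR4A2I (low gain-low intake above the other groups) and in OR2A62 (high intake below low intake). They overlap in the other 8. OR4A2I and OR2A62 led to the choice of the families, and the share of all clusters that separate likewise is not given.

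With gain, more members were lower than higher in the high gain steers. At an unadjusted p under 0.05 limma called 28 members (12.7%), against 6.06% of all clusters, and 0% of clusters passed an adjusted p under 0.05. Of these 28, 23 (10.4%) were lower with high gain, against 3.44% of all clusters, and 5 (2.26%) were higher, against 2.62%. Without OR4A2I and OR2A62, 27 of 219 (12.3%) were called, of which 22 were lower and 5 higher. Of the 21 members called in the F test, on which the families were chosen, 18 were also called for gain. The counts for gain are therefore given beside the background and nothing is read from them. The lower ones included OR4D11B (-0.75 with a standard error of 0.22), OR4C1 (-0.56 with 0.20), OR2L3C (-0.52 with 0.18), OR2C3B (-0.50 with 0.17) and OR4X2. The higher ones were OR2B2 (0.44 with 0.20), OR2Z2 (0.26 with 0.11), OR4F1D (0.24 with 0.10), OR2J3 (0.21 with 0.09) and OR2L2C (0.20 with 0.09).

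Of all 221 members, 149 (67.4%) had a lower and 72 a higher mean with high gain. The share with a lower mean was 68.2% in the other olfactory receptor families and 52.9% over all clusters. The median difference was -0.067 for OR2 and OR4, -0.078 for the other olfactory receptor families and -0.010 for all clusters. The other olfactory receptor families had 72 of 594 clusters called for gain (12.1%), of which 63 were lower. Among the 3813 genes of other families below the lower quartile, a list set up after these counts were seen, the median was -0.040, and 181 (4.75%) were called, of which 133 were lower. In that list 64.1% of the genes had a lower mean with high gain. Within high intake steers the median difference of high from low gain was -0.072 for the members and -0.093 for the other olfactory receptor families. It was -0.061 for the other dim genes and -0.017 for all clusters. Within low intake steers these medians were, in the same order, -0.059, -0.050, -0.015 and -0.005.

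The dim end of the scale averaged lower in high gain steers, with overlap between the groups and no test. The lower quartile of the array averaged 7.01 ± 0.04 in high gain and 7.05 ± 0.05 in low gain steers, and the median of the 221 members averaged 6.40 ± 0.07 in high gain and 6.49 ± 0.09 in low gain steers (SD, n = 8 each). The part of this shift in the counts for gain was not tested. After quantile normalization, which gives every array the same distribution, 24 members were called for gain, of which 16 were lower and 8 higher, and the median difference was -0.031. All clusters then had 705 lower and 744 higher, the other olfactory receptor families 49 lower and 9 higher, and the other dim genes 67 lower and 108 higher. After centring each array on its median, 19 members were lower and 7 higher, while all clusters had 634 lower and 884 higher, where the deposited values gave 859 lower and 656 higher. The steer with the highest member median (6.65) was a low gain-high intake steer that also had the highest lower quartile of its array (7.14).

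**Figure D4:**
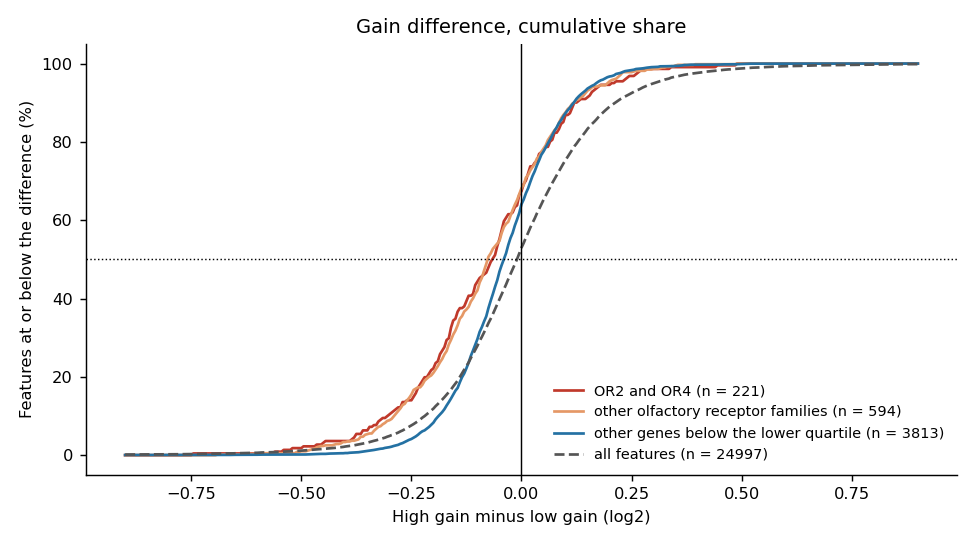
Cumulative percentage (y axis) of clusters at or below a given difference of high gain from low gain steers on the log2 scale (x axis), for OR2 and OR4, the other olfactory receptor families, other genes below the lower quartile and all clusters. The solid line marks no difference and the dotted line 50%. The curves of both receptor lists cross 50% left of 0 (median of -0.067 for OR2 and OR4 and -0.078 for the other families), and the other dim genes cross closer to 0 (-0.040).

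**Figure D5:**
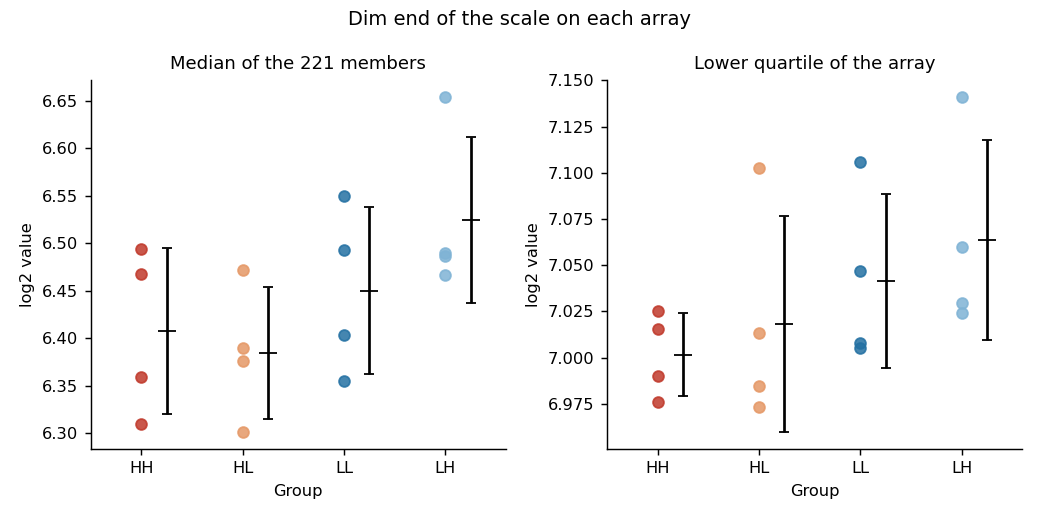
Median log2 value of the 221 members (left) and lower quartile of all clusters (right) on the array of each steer, by group (x axis; HH and HL are high gain with high and low intake, LL and LH are low gain with low and high intake). Points are steers and the bars beside them are the mean and SD of 4 steers. Both measures average higher in low gain than in high gain steers, with overlap between the groups.

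For intake and the interaction the counts of members were lower than for gain. Limma called 11 members for intake at an unadjusted p under 0.05 (4.98%), against 3.4% of all clusters, with 6 higher and 5 lower with high intake. Without OR4A2I and OR2A62 it was 9 of 219 (4.11%), with 6 higher and 3 lower. For the interaction, where the effect of intake in low gain steers is taken from that in high gain steers, it called 7 (3.17%), against 4.65% of all clusters, and 6 of 219 (2.74%) without OR4A2I and OR2A62. The members called for intake besides OR2A62 included OR2Q2 (0.49 with a standard error of 0.17) and OR4C1I (0.40 with 0.13). Neither the members nor any other cluster passed an adjusted p under 0.05 for intake or the interaction (0% of all clusters).

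Set against the other 12 steers, each group gave members with an unadjusted p under 0.05, while 0 members and 0% of clusters passed once the p was adjusted. High gain-high intake steers had 10 (4.52%), against 3.47% of all clusters. High gain-low intake steers had 22 (9.95%), against 5.57%, of which 18 (8.14%) were lower, against 2.82%, and 4 (1.81%) were higher, against 2.75%. Low gain-low intake steers had 12 (5.43%), against 5.48%, of which 10 (4.52%) were higher, against 2.94%, and 2 (0.905%) were lower, against 2.54%. Low gain-high intake steers had 20 (9.05%), against 4.46%, of which 17 (7.69%) were higher, against 2.78%, and 3 (1.36%) were lower, against 1.67%. Without OR4A2I and OR2A62, these counts were 9 of 219 (4.11%) in high gain-high intake, 20 (9.13%, with 17 lower) in high gain-low intake, 10 (4.57%, with 8 higher) in low gain-low intake and 19 (8.68%, with 17 higher) in low gain-high intake steers. As OR4A2I and OR2A62 were chosen on the same fit, nothing is read from these shares. The 4 comparisons share steers and are not independent of each other or of gain.

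The genes through which the receptors act in the nose were found for 28 of 34 names. The F test called 0 of these 28 (0%) at an unadjusted p under 0.05, against 4.67% of all clusters. With so few genes, nothing is read from this count. Of the transduction genes, those that mark the olfactory neuron were below the median of all clusters. GNAL averaged 6.95, GNG13 6.53, ADCY3 7.19, CNGA2 6.69, CNGA4 6.85, CNGB1 7.51, and the calcium-activated chloride channel ANO2 6.01. Genes of this list that many cells use were bright, such as the G protein subunit GNB1 at 16.49, the receptor kinase GRK3 at 13.89 and the arrestin ARRB2 at 10.34. The calcium exchanger SLC24A4 averaged 6.32, the phosphodiesterases PDE1C and PDE4A averaged 6.76 and 8.47, and the kinase CAMK2G averaged 10.25.

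Of the genes that carry the receptors to the surface, RTP1 averaged 6.41, RTP2 7.40 and REEP1 6.60. The chaperone RIC8B was on the same list and averaged 11.25. RTP2 was the 1 gene of the 28 (3.57%, against 6.06% of all clusters) called for gain at an unadjusted p under 0.05 (-0.38 with a standard error of 0.17, limma, adjusted p = 0.814). For intake, 1 gene was called (3.57%, against 3.4% of all clusters), the channel subunit CNGA4 (0.24 with a standard error of 0.11, limma, adjusted p = 1). Of the factors known from mice to act in the choice of a receptor gene, LHX2 averaged 6.57, EMX2 7.08 and ATF5 7.12, whereas EBF1, also a B cell factor, averaged 9.51, EBF4 10.10, LDB1 14.76, KDM1A 11.25 and CBX5 14.75. CBX5, a heterochromatin protein, differed by -0.40 in low gain-low intake steers from the rest with a standard error of 0.16 (limma, adjusted p = 0.819). It was the 1 gene of the list called for that group (3.57%, against 5.48% of all clusters). For low gain-high intake steers, 1 gene of the list, not named here, was called as higher than in the rest (3.57%, against 4.46% of all clusters called).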

How the data were processed

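Spleen RNA of 16 steers, passed over columns that remove genomic DNA, was hybridised to Affymetrix Bovine 1.1 ST arrays. The authors applied GC content normalization, signal space transformation (SST) and RMA in Affymetrix Expression Console and deposited log2 values, 1 for each cluster on each array. Transcriptome Analysis Console is also named in the submitters' processing notes, with versions not given in the sources used here. SST stretches the signal, so log2 differences are those of the stretched scale, and no array has a depth in reads. The number of arrays limits the precision.

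Of 26773 deposited clusters, 1776 below the first annotated ID were left out. Of the 24997 tested, the platform annotation lists 18790 with 1 symbol and 385 with several, and 5822 were not listed. Another 11 clusters that list an OR2 or OR4 symbol together with others were left out of the members (mean log2 values from 5.21 to 8.69). Gene IDs were matched to RefSeq for 218 of 221 members and symbols for 221. No sequences of the members are shown. The log2 values were fitted in R 4.3.3 by limma 3.58.1 to 4 group means. The fit gave an F test (3 degrees of freedom) and contrasts for gain, intake, interaction and each group against the rest, adjusted by Benjamini-Hochberg over all clusters. The fit was tested on simulated data. Differences are high minus low, or the group minus the mean of the other 3, on the log2 scale, and standard errors are those of limma. Steers were numbered in accession order, which pairs no samples.

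The members and lists were chosen with earlier results of these data known. Named members are OR4A2I and OR2A62, the 8 highest and 3 lowest in level, the 8 others with the smallest F p, the 3 with the largest and the 3 with the smallest within-group SD, the neighbours and most alike clusters of OR4A2I and OR2A62, and the pathway genes. Names beyond these in the gain, intake and group counts were picked after their values were seen. Alternatives were trend and robust moderation, ordinary least squares (as in the methods), array weights, median centring, quantile normalization, a filter on dim clusters and leaving out each steer.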

Additional observations from a re-analysis of the deposited data

Results flagged for a closer look

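Among the 24 named members, the highest and the lowest steer of each group of 4 were compared with the rest of the group by Dixon's criterion, which chance meets in about 1 of 20 groups. Of 96 groups, 4 met it. OR2V2 measured 11.65 in 1 low gain-low intake steer, against 9.82 to 10.02 in the other 3. OR2C3B measured 6.52 in 1 low gain-high intake steer, against 5.68 to 5.82 in the other 3. OR2Q2 measured 6.26 in 1 high gain-high intake steer, against 6.79 to 6.88 in the other 3. OR4C1I measured 6.80 in 1 high gain-low intake steer, against 6.38 to 6.41 in the other 3. These are 4 different steers and no cause was tested. In 0 of the named members were high intake steers all above low intake steers at 1 gain level and all below at the other. The share of all clusters that meet this rule is not given, so nothing is read from it.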

How the results depend on the processing

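Under 6 alternatives and the 16 fits that left out 1 steer, 0 members passed an adjusted p under 0.05 in any of the 8 tests. With array weights, 3 of all clusters passed it for low gain-low intake. The share of all clusters past this cut is not given for the other alternatives or the fits without a steer. Leaving out clusters below the lower quartile of every array kept 112 members among 21108 clusters, of which 12 were called in the F test (10.7%, against 4.55% of clusters), 16 for gain (14.3%, against 6.01%; 100% lower with high gain), 7 for intake (6.25%, against 3.18%), 3 for the interaction (2.68%, against 4.74%), 6 for high gain-high intake (5.36%, against 3.28%), 13 for high gain-low intake (11.6%, against 5.44%), 6 for low gain-low intake (5.36%, against 5.80%) and 14 for low gain-high intake (12.5%, against 4.15%). In that filtered set 54.6% of the gain calls over all clusters were lower with high gain. The filter kept a cluster that reached the lower quartile on any array. A dim member could thus pass through the steers where it was high, so nothing is read from these shares. With array weights 19 members were called for low gain-low intake (8.60%, against 8.22% of all clusters). All clusters then gave 2038 calls for gain, against 1515 without weights. The members had 28 gain calls with and without weights. The share of these gain calls that were lower with high gain was 92.9% with weights, against 82.1% in the report. With weights this share was 88.8% in the other olfactory receptor families and 56.0% over all clusters. With quantile normalization it was 66.7% for the members, 84.5% for the other families and 48.7% over all clusters. Against clusters with 1 symbol alone, 78.7% of members were below the lower quartile.

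Leaving out single steers gave 17 to 23 members in the F test, 20 to 32 for gain (75% to 93.75% lower), 8 to 16 for intake, 8 to 15 for high gain-high intake, 15 to 23 for high gain-low intake, 8 to 14 for low gain-low intake and 15 to 24 for low gain-high intake. The interaction gave 2 to 11. It was 11 without high gain-high intake steer 2, 4 without steer 3 or 4 of that group, 2 without low gain-low intake steer 3, 3 without low gain-high intake steer 1 and 4 without low gain-high intake steer 3. In these fits between 74.7% and 75.6% of members were below the lower quartile. Calls over all clusters are not given for these fits, so nothing about the members is read from these counts of calls. The causes were not tested.

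The steers of different groups share no number in the labels. No paired analysis was possible because the replicate numbers follow accession order only. The slaughter day of each steer, which would match steers across groups, is not in the labels. With a single array per steer, technical and animal spread cannot be told apart, and at levels near the dim end an array cannot tell a silent gene from a weakly transcribed one.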

Other observations

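The 11 clusters that list an OR2 or OR4 symbol together with other symbols, and that enter no comparison of the report, had mean log2 values between 5.21 and 8.69 with a median of 6.80, and 7 of them were below the lower quartile of all clusters. The highest, 8.69, was the cluster listed for OR4X2B, OR4X2 and OR4X16, close to the brighter cluster of OR4X2 alone at 8.65. The other cluster of OR4X2 alone averaged 4.41.

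The 2 clusters of a symbol did not move together over the 16 steers. Pearson's r was 0.16 for the clusters of OR4X2 and 0.11 for those of OR4C1J, which are descriptions over arrays that both clusters share.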
